A study of Drosophila melanogaster with 6 samples.

Results

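Intervals of Drgx binding were described at 10 genes of the ecdysone response, which encode the ecdysone receptor and transcription factors that act downstream of it. The genes were EcR, usp, br, Eip74EF, Eip75B, Eip78C, Hr3, Hr4, ftz-f1 and Eip93F, and all 10 were found in the RefSeq gene table under these symbols. An interval was counted at a gene when it overlapped, by at least 1 bp, the gene body or the 5 kb on either side of it. By this rule 10 of the 2396 deposited intervals were at these genes, and they lay at 5 of the 10 genes. By the same rule 19.9% of all protein-coding genes had an interval, and 65.6% of those of at least 30 kb, a length that 9 of the 10 genes reach.

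The intervals come from Targeted DamID in T4/T5 neurons, the motion-direction-selective neurons of the Drosophila optic lobe. In this assay trace amounts of the Dam methylase, free or fused to a DNA-binding protein, methylate GATC sites near the places the protein visits. Here the fused protein was Drgx, a homeodomain factor of the Paired-like class. In 3 Dam-Drgx samples the transgene was UAS-Dam-DRGX, and in the 3 Dam-only samples set against them it was UAS-Dam. Animals of both groups also carried the R23G12-Gal4 driver, UAS-CD8-GFP, which encodes a membrane marker, and tubGal80ts, which encodes a temperature-sensitive inhibitor of Gal4. Larvae grew at 18 °C, were moved to 29 °C at the third instar for 24 h, and were wandering larvae when whole brains were dissected. The cells profiled are thus defined by the driver line and not by a dissection or a sort, and the Dam-Drgx protein came from a transgene. The deposited file holds no expression values, so the labelled cell type could not be checked against marker genes.

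The steroid ecdysone is released in pulses that time larval moults and metamorphosis, and a large pulse at the end of the third instar starts pupariation. It binds a heterodimer of the nuclear receptors EcR and Usp, which activates a small set of early genes. The products of these genes are themselves transcription factors, and they turn on later factors and then tissue-specific targets. In the developing brain the same hormone times the progression of neural stem cells and the remodelling and maturation of neurons.

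Each deposited interval carries a score and a false discovery rate, both made by the authors. The score is a positive number whose scale is not given in the sources used here, so it only describes and ranks intervals within the list. In the whole list its lowest value was 1.24, its median 2.83 and its highest 6.47. The false discovery rate was at most 0.00883. The list names no sample and was taken to be the result of setting Dam-Drgx against Dam alone, so no replicate error, read depth or test between Dam-Drgx and Dam alone can be attached to any interval below. Positions are in the BDGP6 build named by the submitters, 1-based, and genes are those of the Release 6 RefSeq table. That table has no strand and no exons, so positions along a gene are counted from its low-coordinate end, and exonic, intronic and UTR positions were not analysed here.

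**Figure D1:**
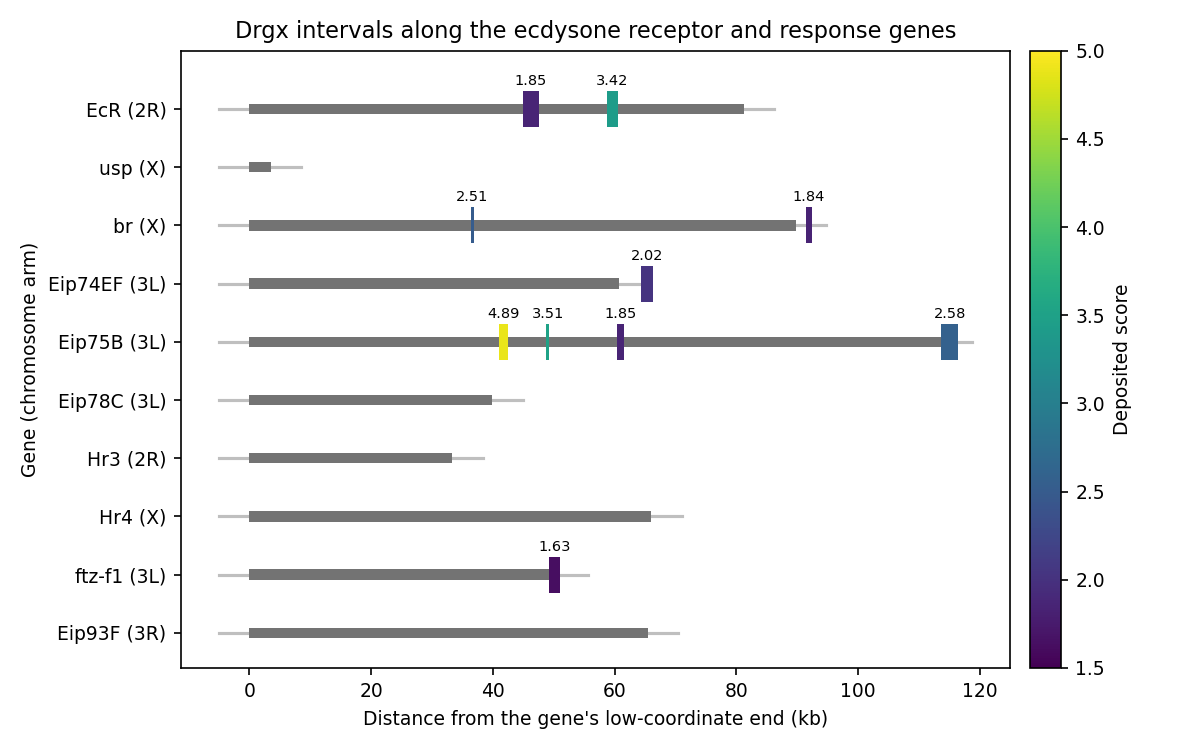
Each row is a gene, drawn in kb from its low-coordinate end, with the gene body as a dark bar, the 5 kb flanks as thin lines and each interval as a coloured block labelled with its deposited score. Eip75B carries 4 intervals, EcR and br 2 each, Eip74EF and ftz-f1 1 each, and the other 5 genes none.

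Of the receptor subunits, EcR had intervals and usp had none. EcR (CG1765) spans 81.2 kb of 2R, from 6087873 to 6169087, and both of its intervals lay inside the gene body. The first covered 6132814 to 6135449, centred 57.0% of the way along the gene, and had a score of 1.85 and a false discovery rate of 0.00293. EcR's other interval covered 6146592 to 6148446, centred 73.4% of the way along, and had a score of 3.42 with a false discovery rate of 5.27e-08. The score of 3.42 stood above 67.8% of the list, and that of 1.85 only above 5.55% of it. They were separated by 11143 bp, and neither overlapped another annotated gene, although the small gene CG14589 lies inside EcR between them at 6137303 to 6138411. The next interval of the list lay 15011 bp before the low-coordinate end of EcR, with a score of 1.99.

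The gene usp (CG4380) encodes the partner of EcR, the fly orthologue of the vertebrate retinoid X receptors. At 3.51 kb it was the shortest of the 10 genes, and it lies on X at 2038798 to 2042311. The nearest interval lay 42693 bp beyond it, in the gene Unc-76, with a score of 2.41. On the other side the nearest was 139956 bp away in arm, which encodes the fly β-catenin, with a score of 3.47. The same pair of intervals were also the nearest to Hr4, the neighbouring member on X.

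The early response genes are transcribed directly on activation of the receptor. Of these, br, Eip74EF and Eip75B were studied here, and all 3 had an interval, with 7 intervals in all and the most at Eip75B. They are 60.7 to 113.7 kb long, and 76.4% of protein-coding genes of 60 to under 120 kb had an interval. Eip75B encodes the nuclear receptor E75, which binds haem and is related to the vertebrate Rev-erb receptors. It is the longest of the 10 genes, at 113.7 kb, and spans 17950953 to 18064696 on 3L.

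Eip75B carried 4 intervals, of which 3 lay inside the body and 1 across its high-coordinate end. The first of them covered 17992042 to 17993492 and had a score of 4.89 with a false discovery rate of 1.52e-11. This score was at rank 45 of the 2396 intervals, above 98.04% of the list. The next covered 17999644 to 18000240, with a score of 3.51 and a false discovery rate of 0.00106. The third covered 18011410 to 18012494, with a score of 1.85 and a false discovery rate of 0.00453. These 3 intervals formed a group between 36.8% and 53.6% of the way along the gene, with gaps of 6152 bp and 11170 bp between them, and their scores differed widely. The interval across the gene end covered 18064588 to 18067344, with a score of 2.58 and a false discovery rate of 0.000177, and most of its 2757 bp lay beyond the annotated gene end. A further interval with a score of 4.24 began 10760 bp beyond the gene, outside the window and overlapping no annotated gene. None of the 4 intervals overlapped another annotated gene. The one across the gene end, however, also reached into the 5 kb flanks of CG44006 and CG44005.

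The gene br (CG11491) encodes the Broad proteins, BTB zinc-finger factors that mark the pupal stage. It spans 89.7 kb of X, from 1575132 to 1664869. An interval at 1611604 to 1611969 lay inside it, 40.8% of the way along, with a score of 2.51 and a false discovery rate of 1.23e-05. At 366 bp this was the narrowest of the 10 intervals. The other interval at br, at 1666578 to 1667507, began 1709 bp beyond the gene and had a score of 1.84 and a false discovery rate of 0.00453. Neither interval belongs to br alone in the annotation. The long gene Mur2B, annotated from 1523554 to 1668788, contains both, and the second also lies in dor, which encodes a subunit of a vesicle-tethering complex.

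Eip74EF (CG32180), which encodes the ETS-domain factor E74, spans 60.7 kb of 3L from 17558672 to 17619325 and had no interval in its body. Its only interval, at 17623011 to 17625011, began 3686 bp beyond the gene, inside the gene anchor, with a score of 2.02 and a false discovery rate of 0.00453. The next interval on that side lay 23687 bp from Eip74EF, across an end of Pep, with a score of 3.01. Pep encodes an RNA-binding protein known from ecdysone-induced puffs of polytene chromosomes.

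Of the genes that act after the early response, ftz-f1 had a single interval and Eip78C, Hr3, Hr4 and Eip93F had none. The gene ftz-f1 (CG4059) encodes a nuclear receptor that makes tissues competent for the prepupal ecdysone pulse, and it spans 50.7 kb of 3L from 18750607 to 18801309. Its interval covered 18799864 to 18801606 and crossed the high-coordinate end of the gene, with most of its width inside the body. The score of 1.63 was the lowest of the 10 and stood above only 1.13% of the list, with a false discovery rate of 0.00293. This interval also overlapped lncRNA:CR45939, annotated from 18772086 to 18801312. The gene ends of ftz-f1 and lncRNA:CR45939 differ by a few bases, so the interval cannot be given to either. It also lay in the 5 kb flank of the protein-coding gene CG14073, annotated from 18802265 to 18820675.

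Eip78C (CG18023), a gene of the early-late class that encodes an E75-related nuclear receptor, spans 39.9 kb of 3L from 21226609 to 21266503. The nearest interval lay 33352 bp before it in CG42337, with a score of 1.89. Hr3 (CG33183) encodes the fly orthologue of the vertebrate ROR receptors, which represses early genes and activates ftz-f1. It spans 33.4 kb of 2R from 10203995 to 10237348, and the nearest interval began 26489 bp beyond it with a score of 4.57, overlapping no annotated gene. Hr4 (CG43934), another nuclear receptor gene of the same regulatory circuit, spans 66.0 kb of X from 1941940 to 2007956. Its nearest interval was the one in arm, 43098 bp before the gene. Eip93F (CG18389), which encodes the helix-turn-helix factor E93 that directs adult differentiation, spans 65.4 kb of 3R from 21949114 to 22014539. Its nearest interval lay 31344 bp beyond it, in the RNA-binding protein gene how, with a score of 2.38. Counted over each gene and 100 kb on either side, the list held 2 intervals at Hr3, 3 at Hr4 and Eip93F and 4 at usp and Eip78C. The same count, own intervals included, was 4 at Eip74EF, 5 at ftz-f1 and 6 at EcR, br and Eip75B.

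Eip74EF alone owed its place among the genes with an interval to the 5 kb flank. The members just inside the window by their flanks were br, with its second interval 1709 bp from the gene, and Eip74EF, at 3686 bp. The nearest intervals just outside were those at 10760 bp from Eip75B and 15011 bp from EcR, which both already had intervals. For the 5 genes without an interval, the shortest distance from the gene to an interval was the 26489 bp at Hr3.

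The scores of the 10 intervals were mostly low for the list. They ranged from 1.63 to 4.89 with a median of 2.27, against a median of 2.83 over all intervals. These medians only describe a chosen set, with 4 of its 10 intervals at Eip75B, and their difference was not tested. Above that median lay 3 of the 10, which were the first and second at Eip75B and the second at EcR. The other 7 comprised the remaining intervals of Eip75B and EcR and every interval at br, Eip74EF and ftz-f1. The false discovery rate was at most 0.001 in 4 of the 10, against 61.6% of the whole list. These 4 were the first and last at Eip75B, the second at EcR and the first at br. The median width was 1597 bp, against 1617 bp over the list.

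**Figure D2:**
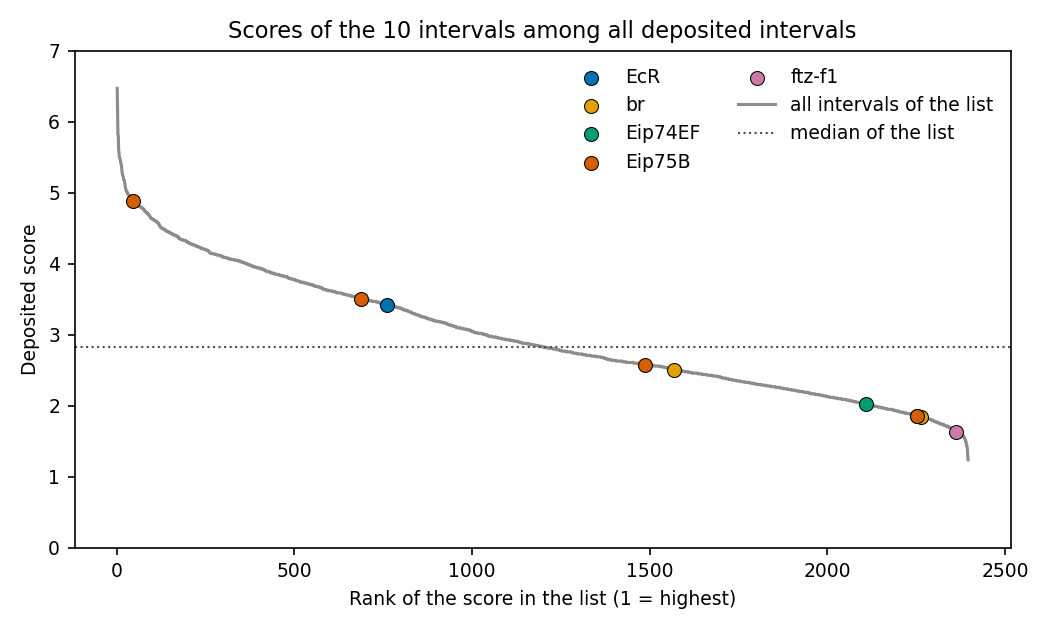
The deposited score is plotted against its rank for all 2396 intervals (grey line) and for the 10 intervals at the ecdysone genes (points coloured by gene), with the list median of 2.83 dotted. An EcR point at 1.85 lies under the Eip75B point of the same score, and 3 points lie above the median.

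Score and width were not ordered alike among the 10 intervals. The highest score, 4.89, stood on an interval of 1451 bp, and the narrowest interval, of 366 bp at br, had 2.51. The widest, of 2757 bp across the end of Eip75B, had 2.58. Intervals of 930 bp at br and 2636 bp at EcR had nearly the same score, 1.84 and 1.85.

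**Figure D3:**
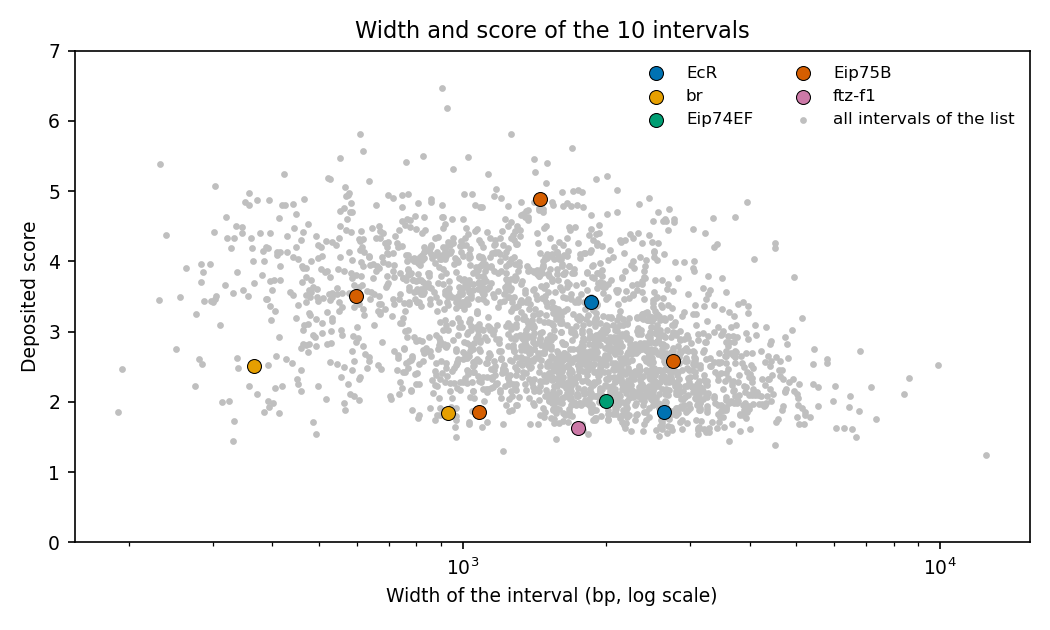
The deposited score is plotted against interval width in bp on a log axis for the whole list (grey) and for the 10 intervals (coloured by gene). The strongest interval of Eip75B, 1451 bp wide with a score of 4.89, sits near the upper edge of the cloud, while 5 of the 10 lie between 1.63 and 2.02 near its lower edge.

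By place, 6 of the 10 intervals lay inside a gene body, 2 across a gene end and 2 in a flank. Over the 838 pairs of an interval and a protein-coding gene of 30 to under 120 kb, the length range of 9 of the 10 genes, 83.9% were inside the body, 5.37% across an end and 10.7% in a flank. The 6 intervals inside the ecdysone genes had a median score of 2.97, and the corresponding median over the genes of that length was 2.81. The 4 intervals across an end or in a flank had scores from 1.63 to 2.58, so none exceeded the list median. Among genes of that length 28.9% of intervals across an end and 57.8% of those in a flank did. No difference can be read from 4 intervals.

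Within 250 bp of an annotated gene end, an interval lay at 2 of the 10 genes, Eip75B and ftz-f1, in both cases at the high-coordinate end. Their scores, 2.58 and 1.63, were below the list median. The share of all protein-coding genes with an interval so close to an end was 4.14%. Most of those genes are far shorter than these 2, and no share for genes of like length is given, so the counts are not matched. Without strand it is not known here which of these ends is a start site.

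Having an interval was then compared with other genes. An interval by the same rule was found at 5 of the 10 ecdysone genes (50%), against 19.9% of the 13922 protein-coding genes. With the gene body alone the count was 4 of 10, against 8.32%. The ecdysone genes are, however, far longer than most, with a median body of 63.0 kb against 2.16 kb, and long genes meet more intervals. Among genes of 60 to under 120 kb, 4 of the 6 ecdysone genes had an interval, against 76.4% of 174 protein-coding genes. Among those of 30 to under 60 kb the count was 1 of 3, namely ftz-f1, against 61.4% of 433. The single short gene, usp, had none, and among the 10441 genes under 5 kb 15.2% had an interval. No ecdysone gene fell into the other classes, where the shares were 19.7% for 5 to under 10 kb, 34.9% for 10 to under 30 kb and 64.3% for 120 kb and over. In each class that held ecdysone genes their share was thus no higher than that of all genes, and with 10 genes no difference in either direction was tested.

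**Figure D4:**
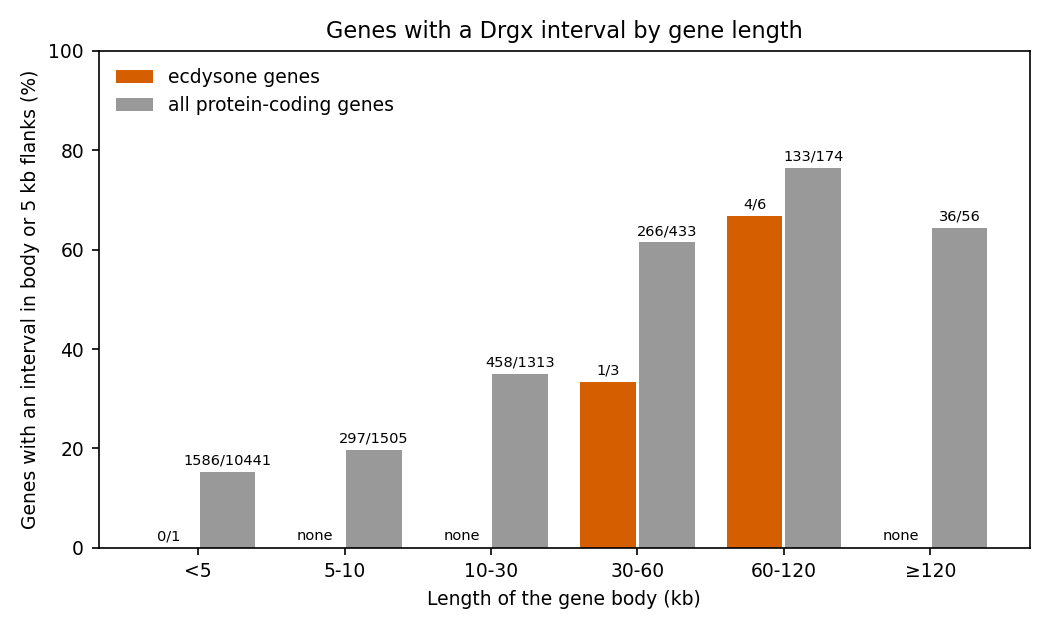
Bars give the percentage of genes with at least 1 interval in the body or 5 kb flanks, by length of the gene body in kb, for the ecdysone genes (orange) and all protein-coding genes (grey, ecdysone genes included), with the counts above. The orange bars reach 1 of 3 and 4 of 6, below the grey bars of 61.4% and 76.4%.

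The number of intervals per gene was also set against genes of like length. The 6 ecdysone genes of 60 to under 120 kb averaged 1.5 intervals, against 1.96 over all protein-coding genes of that length. The 3 of 30 to under 60 kb averaged 0.333, against 1.15. At least 4 intervals, the number at Eip75B, were found at 0.668% of all protein-coding genes but at 19% of those of its length class. At least 2, the number at EcR and br, were found at 4.56% of all and at 54.6% of that class. The score of the strongest Eip75B interval was reached less often, since 3.45% of the genes of that class had an interval of at least 4.89. Eip75B was among the 6 genes that did. Per 100 kb of window the 10 genes held 1.42 intervals, against 1.83 over the windows of all protein-coding genes and 1.79 over the 6 arms. Among the 5 genes with an interval this density ran from 1.42 at Eip74EF to 3.23 at Eip75B. The intervals covered 4.92% of the EcR window and 4.76% of the Eip75B window, but 1.30% of the br window.

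Further genes were taken from 4 lists with 51 genes in all, of which 16 had an interval (31.4%, against 19.9% of all protein-coding genes). The 14 other nuclear receptor genes among them form a gene family list and not a list of ecdysone pathway genes. Of the 11 listed genes of at least 30 kb 8 had one, against 65.6% of protein-coding genes of that length. Of the 40 shorter ones 8 had one, against 17.7% of all genes under 30 kb. Most genes under 30 kb are under 5 kb, where the share was 15.2%, and it was 34.9% for 10 to under 30 kb. The median length of the 51 genes was 10.5 kb. None of the 10 genes for ecdysteroid synthesis, import and breakdown had one. Of these, 8 are shorter than 30 kb. The 2 longer ones are spok, of 31.7 kb, and nvd, of 76.8 kb, which encodes an enzyme of the first step of synthesis. Of 5 genes for receptor cofactors, 3 had an interval, namely both of those over 30 kb and 1 of the 3 shorter ones. They were tai, a coactivator of EcR, with scores of 2.49 and 2.09, the corepressor gene Smr with 2.14 and 4.34, and bon with 2.61. The 4.34 at Smr was above both EcR scores.

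Of the 7 nuclear receptor genes among the ecdysone genes 3 had an interval, against 3 of the 14 other nuclear receptor genes. The counts cannot be compared directly, since 6 of those 7 genes but only 2 of the 14 reach 30 kb. The other nuclear receptor genes with an interval were svp, tll and dsf. The gene tll, a regulator of optic lobe progenitors only 2.09 kb long, had 4 intervals with scores from 2.33 to 4.85. None of them lay wholly inside the gene. The interval of 2.33 crossed an end of tll, and those of 2.82, 4.38 and 4.85 lay in its flanks. The gene svp had a single interval, which also lies in CG44037, with a score of 4.97 beside the 4.89 of Eip75B. The median score was 2.27 at the ecdysone genes, against 3.96 over the 6 intervals of these 3 genes. Of those 6 intervals 4 are at tll alone, and the difference was not tested.

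Of 22 other genes linked to ecdysone, 10 had an interval, with 21 intervals and a median score of 3.03. All 5 of the 22 that reach 30 kb had an interval, against 65.6% of protein-coding genes of that length. Of the 17 shorter ones 5 had an interval, against 17.7% of all genes under 30 kb. That share is not matched for length. The median length of the 22 genes was 14.5 kb, and 34.9% of protein-coding genes of 10 to under 30 kb had an interval. The 10 genes include the temporal regulators chinmo (4 intervals, scores from 2.60 to 4.04), mamo (4, from 2.24 to 3.35), Imp (3, from 2.17 to 4.09) and Syp (3, from 1.82 to 3.34). The zinc-finger gene Kr-h1, a target of juvenile hormone, had 2 with scores of 2.22 and 3.81, the second of them in its flank and nearer to the gene stai. The gene crol had 1 with a score of 3.99 and Eip63E 1 with 3.82. Single intervals of 2.12, 2.52 and 2.96 were found at Blimp-1, Sox14 and babo, and that of babo lay nearer to the neighbouring gene spab. The early puff gene E23 and the gene vri, of 20.0 and 22.3 kb, had none. The score ranges of all lists with an interval overlapped that of the ecdysone genes.

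**Figure D5:**
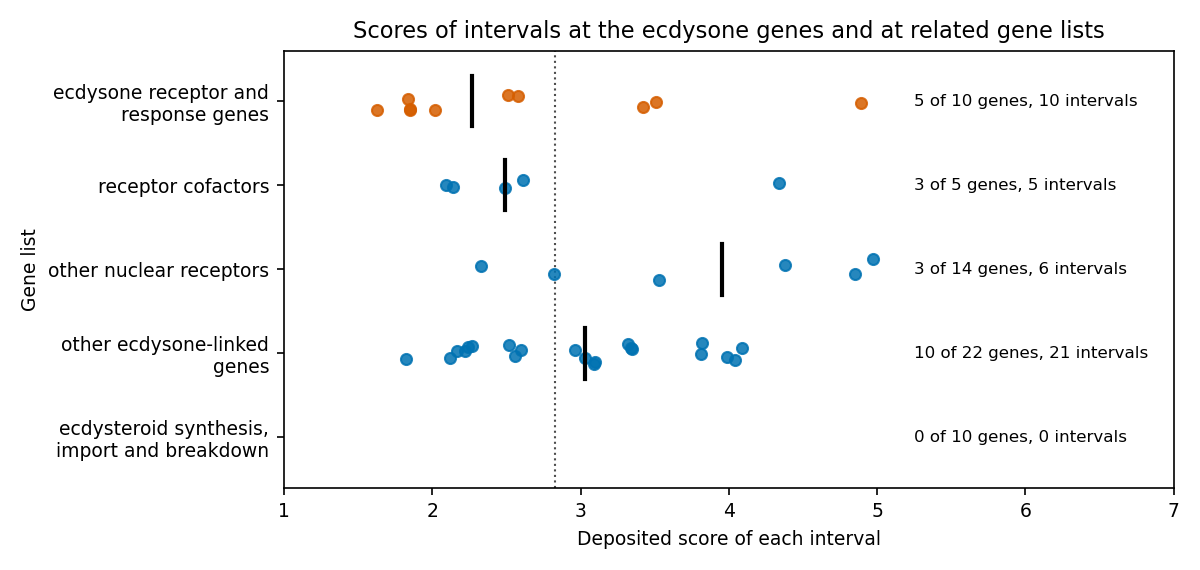
Each point is the deposited score of an interval, by gene list, with the list's median as a black bar and the median of all deposited intervals (2.83) dotted; vertical scatter is only for display. The ecdysone receptor and response genes have a median of 2.27 and the receptor cofactors one of 2.49; with gene bodies alone the median of the ecdysone genes is 2.55. Their highest point, 4.89 at Eip75B, is close to the highest of the other nuclear receptors, 4.97.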

How the data were processed

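Targeted DamID libraries were made from 3 Dam-Drgx and 3 Dam-only samples, grouped by their titles. The authors deposited 1 interval list for the series, with a score and, as text, a false discovery rate per interval. Coordinates are in BDGP6, per the submitters' processing notes. The scale of the deposited score, the peak caller, the filters and the pooling of replicates are not given in the sources used here, and no depth comes with the list.

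BED starts were raised by 1. Genes on the 6 arms came from the RefSeq table of Release 6. Of the 51 further genes, 45 matched by symbol and 6 by synonym. An overlap of at least 1 bp with the body or 5 kb flanks was counted. No test was made, because the list holds no replicate values. The members, lists and length classes were chosen with earlier results of these data known. Genes named are the 10 members, their neighbours at intervals and those of the 51 further genes that have an interval. The genes nvd, spok, E23 and vri were named after their values were seen. Promoters and motifs planned for description were not analysed, since the table has no strand and no sequence was used; gene ends replaced promoters. The overlap procedure was tested on simulated intervals. Python 3.11.15, numpy 2.4.6, pandas 2.3.3, scipy 1.17.1 and matplotlib 3.10.9 were used.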

Additional observations from a re-analysis of the deposited data

How the results depend on the processing

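Counts at the 10 genes depended mainly on the strength required of an interval. With scores above the list median, 2 genes (EcR and Eip75B) kept 3 intervals, or 0.426 per 100 kb. With a false discovery rate of at most 0.001, 3 genes (EcR, br and Eip75B) kept 4 intervals, or 0.568 per 100 kb. Without Eip75B, 6 intervals remained. Fewer intervals enter by construction in each case. Of the 2394 intervals on the 6 arms, 1196 had scores above the list median and 1475 a false discovery rate of at most 0.001. No share or density over all protein-coding genes was computed at these cuts. The lower counts and densities at the 10 genes thus have no matched comparison. Gene bodies alone, flanks of 1 or 10 kb, midpoints, joined intervals and the nearest gene body gave 4 or 5 genes and 8 to 10 intervals. The median score lay between 1.94 (without Eip75B) and 3.51 (scores above the list median, which selects on it). Of the 51 further genes, 12 to 21 had an interval over 7 alternatives, against 16 as reported. The count at gene ends, added after seeing the data, was 2 genes with all intervals, 0 with scores above the list median and 1 at the lower false discovery rate. Planned promoter counts were not run. No paired analysis was possible because the list holds no values per sample. Depth is unknown.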
